A study of Oryza sativa with 2 samples.

Results

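WRKY transcription factors are plant proteins that bind W-box elements in promoters through a conserved domain holding the WRKY residues and a zinc finger. Many act downstream of receptor kinases and mitogen-activated protein kinases in immune signalling, and in rice several act as repressors of defence genes or of gibberellin and abscisic acid responses. The genes WRKY24, wrky38, WRKY51, WRKY9, WRKY76 and WRKY62 of this family are described here, each by 1 named probe set of the Affymetrix rice array. They are the 6 genes, of 17905 with a probe set, whose symbol or synonym in the gene table used holds WRKY, so other members of the family were not analysed here. The rule that took them used names and no signal, though earlier results of these data were known when they and the gene lists below were chosen.

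Leaf RNA came from 9311 rice carrying the LRK1 transgene (the LRK1 060615 plants) and from control 9311 rice, an indica variety. Plants were 6 weeks old, 10 of each genotype, kept in a greenhouse at 28 °C with 14 h of light, and received no treatment. LRK1 encodes a rice receptor-like kinase with leucine-rich repeats. The labels name neither the promoter of the transgene nor whether leaves were pooled before extraction. There was 1 array per genotype, so differences carry no error between replicates and no p-value, and each statement compares 2 arrays.

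Signals are log2 MAS5 values, MAS5 being the array maker's summary of the probes of a set. A signal was taken as measured at or above a floor of 5.40, the median signal of the arrays with control probe sets left out. A gene is called higher or lower where both signals are measured and differ at least 2-fold. The gene table holds no name with LRK1, so the transgene's own signal was not checked. The 3 leaf markers found by name were bright on both arrays, with a median ratio of 0.54 and 1 of them called higher. The antenna protein gene CAB2R had 16.24 on the transgenic and 15.70 on the control array. PSAH (LOC4339593), a photosystem I subunit gene, had 15.47 on the transgenic and 14.44 on the control array, 2.04-fold higher, but under 2-fold with the 5 other scalings of the arrays. The part of these leaf markers in the WRKY and defence gene ratios was not tested. The seed storage gene GLUA1 was below the floor on both, at 3.65 and 0.91. Of 3 root markers, the silicon transporter gene LSI2 was below the floor on both arrays, PT11 lay near it (5.64 on the transgenic and 5.44 on the control array), and LSI1 (listed as NIP2-1) was well above it, at 10.50 and 10.40.

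None of the 6 WRKY genes passed the 2-fold rule in either direction. WRKY24, WRKY62 and WRKY51 had lower signals on the transgenic array, by 1.81-fold, 1.62-fold and 1.34-fold. The other members, wrky38, WRKY76 and WRKY9, differed by at most 1.16-fold, each with the slightly higher signal on the transgenic array. Among all 24426 probe sets measured on both arrays, 9.95% were at least 2-fold lower and 8.36% at least 2-fold higher on the transgenic array, so a count of 0 among 6 genes is not far from the background. All 12 member signals were at or above 7.93, and among the 14272 probe sets with both signals at least that high the shares were 8.46% lower and 6.15% higher.

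**Figure D1:**
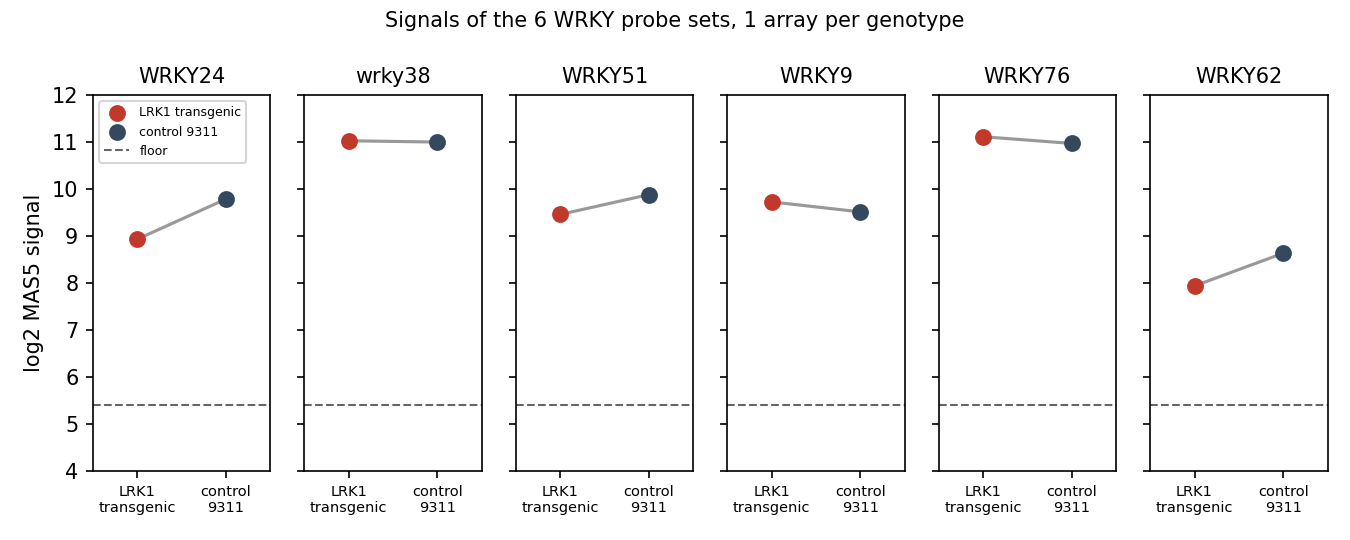
Log2 MAS5 signal (vertical axis) of each WRKY probe set on the LRK1 transgenic array (red, left) and the control array (blue, right), 1 array each, with the floor of 5.40 dashed. Every point lies above the floor, and the drop on the transgenic side is visible for WRKY24, WRKY51 and WRKY62.

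WRKY24, wrky38 and WRKY51 are known from rice aleurone, the outer layer of the seed endosperm, as repressors of hormone-responsive promoters. WRKY24 (LOC4327518), a repressor of gibberellin and abscisic acid responses there, had a log2 signal of 8.93 on the transgenic array, against 9.78 on the control array. These are linear signals of 487 and 881. Its log2 ratio of -0.85 was the lowest of the 6. Of the probe sets measured on both arrays, 12.5% had a ratio as low or lower.

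The gene called wrky38, also listed as WRKY71 (LOC4328512), encodes a repressor of alpha-amylase promoters in aleurone and is also induced in rice defence. Its named probe set read 11.025 on the transgenic and 10.997 on the control array, a log2 ratio of 0.03. It is the only member with a second probe set, which read 8.14 on the transgenic and 8.31 on the control array, a ratio of -0.16. The probe sets thus differed in sign and by 0.19, and neither was near a 2-fold difference.

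WRKY51 (gene ID 4335388) encodes a partner of WRKY71 in repressing those promoters. Its signal was 9.46 on the transgenic array and 9.88 on the control array, a ratio of -0.42. This ratio or a lower one was found in 25.1% of measured probe sets. The WRKY51 ratio was thus 0.45 below that of wrky38, and this difference was not tested.

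WRKY76 and WRKY62 belong to a clade of rice WRKY repressors of defence, and WRKY62 (synonym XB10) is known as a binding partner of XA21, a leucine-rich repeat receptor kinase for bacterial blight resistance. In the RefSeq gene table used for names (Japonica rice, assembly ASM3414082v1) they are direct neighbours, with no gene between them. WRKY76 (LOC4347069) had a signal of 11.11 on the transgenic array and 10.97 on the control array, a ratio of 0.14. WRKY62 (LOC4347070) had 7.93 on the transgenic array and 8.63 on the control array, a ratio of -0.70, and 16.2% of measured probe sets were as low or lower. These neighbours therefore differed in sign as deposited, with the WRKY62 ratio below that of WRKY76 by 0.84 on the log2 scale. The sign of the small WRKY76 ratio depended on the scaling of the arrays, as described below.

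WRKY9 (LOC4343736), for which no role is given here, had a signal of 9.72 on the transgenic and 9.51 on the control array. Its ratio of 0.21 was the highest of the 6. A ratio that high or higher was found in 42.2% of measured probe sets, which places WRKY9 near the middle of the distribution.

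As a group the 6 ratios ran from -0.85 to 0.21 with a median of -0.20, against a median of 0.08 over all probe sets measured on both arrays, whose ratios had an SD of 0.846. Of these, 3 were positive and 3 negative, while 54.7% of those probe sets had a positive ratio. With a smaller size rule of 1.5-fold, WRKY24 and WRKY62 were lower and none was higher. That rule was passed by 19.2% of measured probe sets in the lower direction and 22.1% in the higher one, or 17.4% and 19.3% of those as bright as the members.

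**Figure D2:**
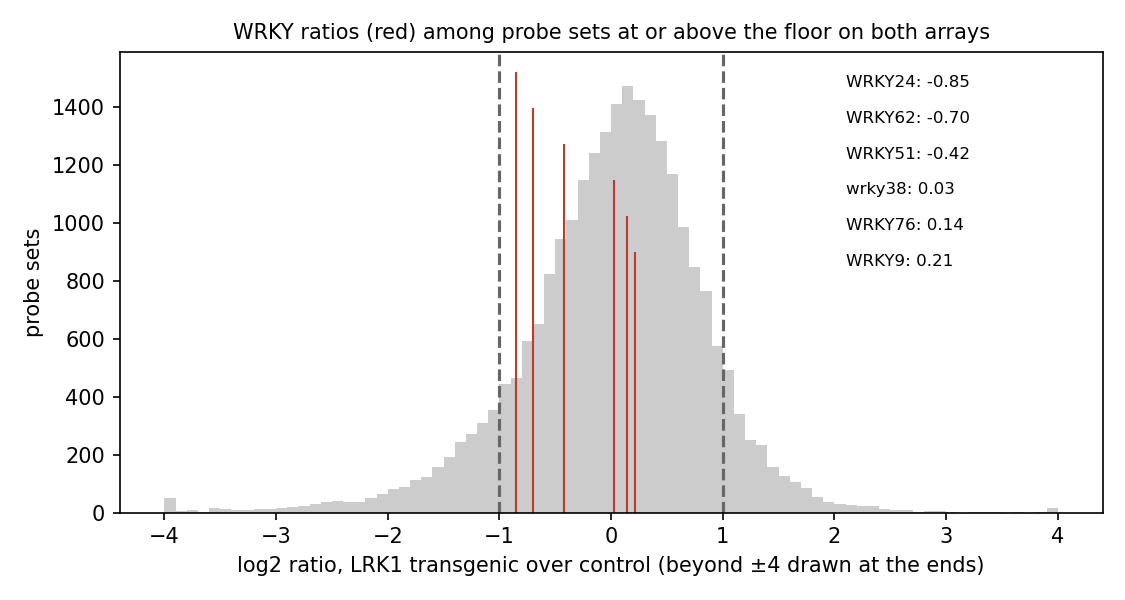
Histogram of log2 ratios, LRK1 transgenic over control (horizontal axis), for the 24426 probe sets measured on both arrays (number of probe sets on the vertical axis), with dashed lines at 2-fold. Red lines mark the 6 WRKY ratios, from -0.85 for WRKY24 to 0.21 for WRKY9, and their heights carry no value; all 6 lie between the dashed lines.

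A partial measure of technical error in these arrays is the disagreement between probe sets of one gene. In 1024 genes with a pair of probe sets as bright as the WRKY members, the paired ratios differed with an SD of 0.497, or 0.352 for a single probe set, and with a median absolute difference of 0.239. The ratios of wrky38, WRKY76 and WRKY9 were smaller in size than that spread. Those of WRKY24, WRKY62 and WRKY51 exceeded it, by a small margin for WRKY51. This spread holds no variation between plants, extractions or labellings, and an error shared by the probe sets of a gene cancels in it. The ratios of the 14272 probe sets as bright as the members had a larger SD, of 0.750.

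The sign of the small ratios depended on how the arrays were put on a common level. The 63 bacterial spike probe sets, controls not made by the plant, had a median ratio of 0.34, with 57 of them higher on the transgenic array, and the median ratio over all probe sets other than controls was 0.23. With the spike median taken off, all 6 WRKY ratios were negative, and WRKY24 (-1.19) and WRKY62 (-1.03) passed the 2-fold rule as lower. The median ratio of all probe sets measured on both arrays was then -0.26, so most of those were negative too. With the median of all probe sets taken off, all 6 WRKY ratios were again negative and WRKY24 passed the rule, at -1.08. The median of probe sets measured on both arrays was then -0.15. The shares of all probe sets past the rule under these scalings were not counted. Quantile normalization and loess kept 3 positive and 3 negative ratios, and none passed the rule. The signs of WRKY24, WRKY62 and WRKY51 were negative under each of these scalings. The ratio of 3' to 5' signal, a sign of RNA integrity, was lower on the transgenic array for each control transcript read. It was 6.95 for actin (9.45 on the control array), 2.16 for GAPDH (3.87), 1.62 for cyclophilin (2.05) and 0.78 for ubiquitin (0.83). The actin and ubiquitin ratios used probe sets that may cross-hybridise. The part of RNA integrity in the WRKY ratios was not tested.

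**Figure D3:**
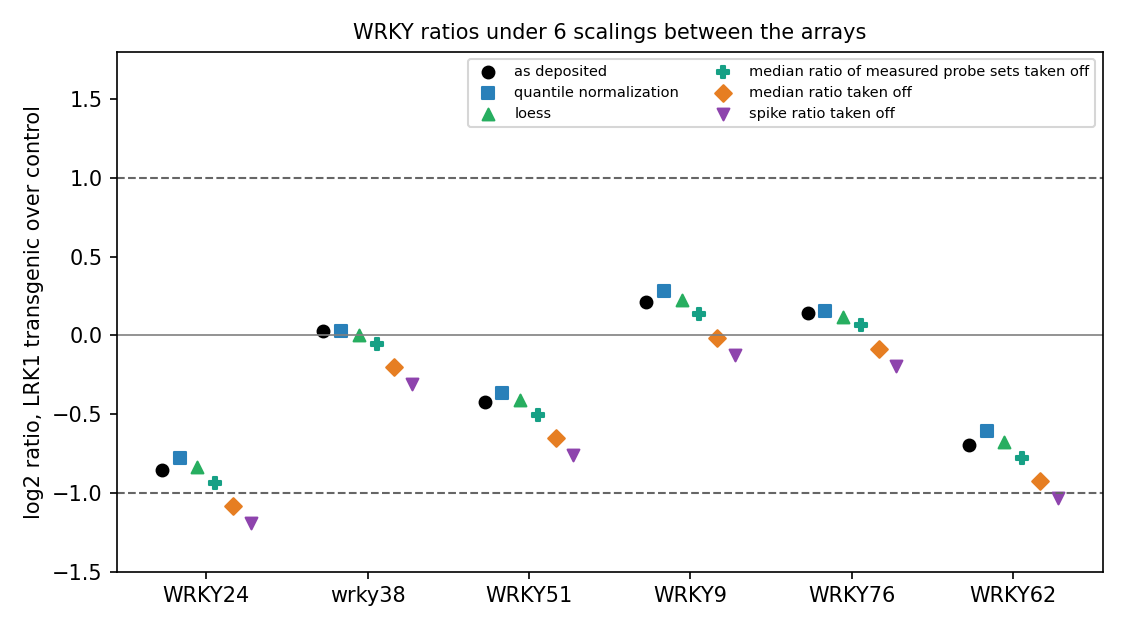
Log2 ratio, LRK1 transgenic over control (vertical axis), of each WRKY gene under 6 scalings between the arrays (symbols), with 2-fold dashed. WRKY24 crosses the lower line when the median of all probe sets or the spike median is taken off, WRKY62 with the spike median only, and wrky38, WRKY9 and WRKY76 move across 0.

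Genes that act before or after WRKY factors in these responses were read from lists matched by symbol or synonym. Over the 15150 genes with at least 1 signal at the floor, 11.4% were lower or above the floor on the control array only, and 7.17% were higher or above the floor on the transgenic array only, with a median ratio of 0.03 after raising every signal under the floor to the floor. These shares are the background for the counts that follow.

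For chitin receptors, their partners and the kinase cascade that activates WRKY factors, 19 listed names gave 11 genes with a probe set. Of these 11, 2 were higher, none was lower, and the median ratio was 0.03. No gene was found under the MKK or RLCK names, and CERK1 and MPK3 each took in more than a single gene through shared names. CEBIP, the chitin-binding receptor, had a signal of 7.84 on the transgenic array, against 6.23 on the control array, 3.06-fold higher. LYP4 (LOC4347230), a receptor for peptidoglycan and chitin, had 7.22 on the transgenic and 5.69 on the control array, 2.90-fold higher, with the control signal just above the floor. The other 9 genes were within 2-fold, with ratios from -0.66 for LOC4349225, listed as MPK6 by a synonym, to 0.79 for RAC1 (LOC4325879). Among them, the kinase gene with the synonyms MPK3, MPK5 and BIMK1 (LOC4332475) had a ratio of 0.12. MPK6, RAC1 and this kinase gene were named after their values were seen.

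For regulators of the salicylate branch, 12 listed names gave only 4 genes with a probe set, and none was found under WRKY45, PAD4 or EDS1. Of the 4, 1 was higher and none was lower, with a median ratio of 0.63. NH3 (LOC4333666), an NPR1 homologue, had 10.88 on the transgenic and 9.71 on the control array, 2.24-fold higher on the brightest of its 4 probe sets, but under 2-fold with the spike median or the median of all probe sets taken off. The genes NH1 (LOC4327315) and NH2 (LOC4325503), both with the synonym NPR1 and named after their values were seen, were both within 2-fold and differed in sign, with ratios of -0.76 and 0.92. The bZIP factor gene TGA2.1 (LOC4344349), likewise named after its value was seen, had 0.35.

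WRKY62 and WRKY76 are known in rice to hold down diterpenoid phytoalexin and pathogenesis-related genes. Of 15 listed phytoalexin synthesis genes with a signal at the floor, 12 were lower, 5 of them above the floor on the control array only, and none was higher. Their median ratio was -3.00. Of the 12, CYP76M8 (LOC4329722) was read on a probe set that may cross-hybridise. This list was drawn up with the low signals of these genes already known, so its count is a description only. The cytochrome P450 gene CYP71Z7 (LOC4329726) had 8.80 on the transgenic and 14.39 on the control array, the cyclase gene CPS2 (LOC9266189) had 9.48 and 14.20, and CPS4 (LOC4335090) had 3.03, below the floor, and 10.30. These genes were named as the largest past the rule, so their differences had to exceed the WRKY76 ratio of 0.14 and the WRKY62 ratio of -0.70. The 3 genes not called, KSL5, CYP99A3 and CYP76M6, had ratios of 0.59, -0.36 and 0.25. They and CYP76M8 were named after their values were seen.

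Of 8 pathogenesis-related genes with a signal at the floor, 6 were lower and none higher, with a median of -1.59. This list was also chosen with earlier results of these data known, so its count is a description only. The chitinase genes CHT10 (LOC4325148) and CHT1 (LOC4342115) were 6.64-fold and 6.46-fold lower. The probenazole-inducible gene PBZ1 (LOC4352491) had 13.50 on the transgenic and 15.45 on the control array, 3.88-fold lower. These genes were named as the largest past the rule, which no WRKY gene passed, so their sizes could not fall below those of the WRKY genes. The 2 genes not called, CHT3 (LOC4342114) and CHT5 (LOC4336265), had ratios of -0.57 and -1.85 and were named after their values were seen. CHT3 was read on a probe set that may cross-hybridise, and CHT5 was below the floor on the transgenic array.

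Hormone-responsive genes of the kind that WRKY24, wrky38 and WRKY51 act on in aleurone differed in how well they were measured in leaf. The alpha-amylase gene AMY1A (LOC4330832) was below the floor on both arrays and listed at 0 on the control array, and AMY3D (LOC4345814), another alpha-amylase gene, was near the floor at 5.56 on the transgenic and 4.52 on the control array. The regulator GAMYB (LOC4327362), which activates alpha-amylase genes, had a ratio of 0.03 on a probe set that may cross-hybridise. These 3 genes were named after their values were seen. Of 5 genes of the gibberellin and abscisic acid list with a signal at the floor, 2 were lower and 1 higher, with a median ratio of 0.03. The dehydrin gene RAB16B (LOC4350453) had 7.18 on the transgenic and 9.13 on the control array, 3.87-fold lower. LEA3 (LEA19), a late embryogenesis abundant protein gene, had 1.71 on the transgenic and 6.61 on the control array, at least 2.31-fold lower on a probe set that may cross-hybridise. RAB21 (LOC4350454), another dehydrin gene, had 8.17 on the transgenic and 7.10 on the control array, 2.09-fold higher on the brighter of its 2 probe sets. This call was lost when any of the spike median, the median of all probe sets or that of measured probe sets was taken off.

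**Figure D4:**
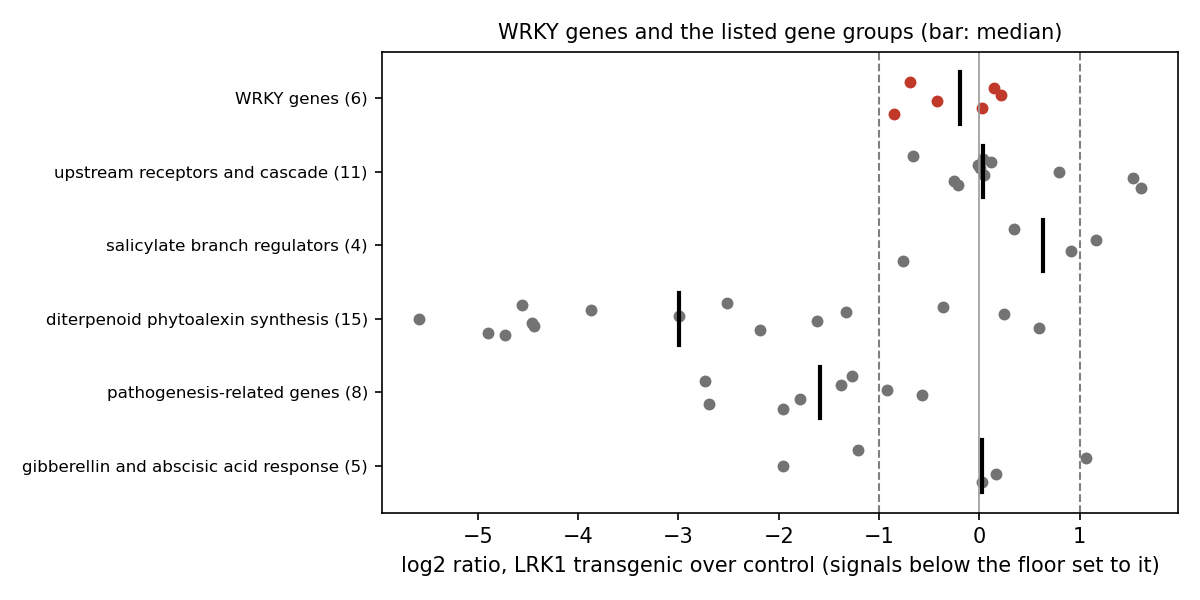
Log2 ratio, LRK1 transgenic over control (horizontal axis), of the 6 WRKY genes (red) and of each listed gene group (grey, number of genes in brackets), with signals below the floor set to it, bars at the medians and 2-fold dashed. The WRKY genes stay between the dashed lines, while the phytoalexin genes have a median of -3.00 and the pathogenesis-related genes one of -1.59. The WRKY genes and the lists were chosen with earlier results of these data known, so the medians are a description only.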

How the data were processed

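Leaf RNA of LRK1 transgenic and control 9311 rice was measured on 1 Affymetrix rice array per genotype, with groups read from the genotype labels. Values were deposited as log2 signals, which the authors obtained, per the submitters' processing notes, with MAS5; its version and scaling target are not given in the sources read, and the log2 scale was read from the values. Of 57381 probe sets, 123 were controls. The platform's annotation tied probe sets to genes, and names came from RefSeq's table for assembly ASM3414082v1. A gene was represented by its brightest probe set on average, the WRKY genes by their named ones. An actin gene that shares the synonym RAC1 was left out of the receptor list. Calls used the floor and the 2-fold rule; for genes measured on 1 array only, that signal had to reach 2 times the floor, and the fold is a bound against the floor.

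No statistical test was run. Signals were rescaled by the spike median, the median ratio, quantile normalization and loess (span 0.3, statsmodels 0.14.6), and the calling and scaling code was checked on simulated arrays. The members and lists were chosen with earlier results of these data known. Up to 3 list genes in each direction past the rule, by size, were named, and others are said to be named after their values were seen. The number of arrays limits the precision.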

Additional observations from a re-analysis of the deposited data

How the results depend on the processing

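None of the 6 WRKY ratios moved by more than the spread of a single probe set (0.352) under the scalings, log2(signal + 16) or, for wrky38, the mean over its probe sets (-0.07). For the spike median, the median of all probe sets and that of measured probe sets this was fixed beforehand. Each takes the same amount off every probe set (0.34, 0.23 and 0.08). The ratios of wrky38, WRKY9 and WRKY76 still changed sign under some scalings. The count of WRKY genes at least 2-fold lower, 0 as deposited, was 1 with the median of all probe sets taken off, 2 with the spike median taken off and 2 with a 1.5-fold rule. It was 0 after quantile normalization, loess and centring on measured probe sets (added after the data were seen), with the floor at the 25th or 75th percentile and with a 4-fold rule. The count of WRKY genes at least 2-fold higher was 0 under all 9 alternatives. Taking off a positive median lowers the ratio of every probe set, so the WRKY genes could gain only lower calls there. The shares over all probe sets under these scalings were not counted. Scalings of the gene lists were added after the data were seen. NH3, RAB21 and the leaf marker PSAH were the 3 of 14 named list genes that lost a call. Salicylate regulators then gave 1 lower gene with the spike median, and pathogenesis-related genes 7 lower with every scaling other than centring on measured probe sets. The planned counts of further WRKY genes could not be made, since 0 such genes were found by name. No paired analysis was possible because each genotype has 1 array, and no array could be left out.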

Other observations

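Genes next to the WRKY genes in the gene table's order were read after the WRKY values were seen. CIGR2 (LOC4343735), a GRAS-family gene known in rice as responsive to chitin and gibberellin, lies directly beside WRKY9 and had a signal of 11.37 on the transgenic and 10.59 on the control array, a ratio of 0.78, against 0.21 for WRKY9. LOC4343737, on the other side of WRKY9, had a ratio of -0.98 on a probe set that may cross-hybridise. Beside WRKY62, the CBL-interacting kinase gene CIPK16 (LOC4347071) had a ratio of -0.32, also on such a probe set, and beside WRKY76 LOC4347068 had 0.23. LOC4327517, directly before WRKY24, had 12.52 on the transgenic and 13.30 on the control array, a ratio of -0.78, close to the -0.85 of WRKY24, while LOC4327519, the nearest gene with a probe set after WRKY24, had 1.11 with 2 genes lying between. The nearest genes with a probe set around wrky38, LOC4328509 and LOC4328514, had -0.26 and -0.04, with 1 and 4 genes between. Those around WRKY51, LOC4335384 and LOC4335391, had the lowest of the neighbour ratios, -3.21 and -2.55, with 4 and 5 genes between. The first was below the floor on both arrays and the second below it on the transgenic array.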
